A study of Mus musculus with 9 samples.

Results

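The genes described here are 10 genes of the vessel wall in the mouse heart, taken by gene symbol, with no threshold on a measured value, out of 16951 genes in the deposited table. Tagln, Myh11, Cnn1, Mylk, Lmod1 and Smtn encode parts of the contractile apparatus of smooth muscle, and Pdgfrb, Notch3, Cspg4 and Abcc9 are used as markers of pericytes and other mural cells. All 10 were in the table and all 10 passed the filter on low values described below.

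Hearts of C57BL/6 mice were sampled in 3 groups of 3 libraries each. The first group was treated with saline. The second was treated with angiotensin II (AngII), a peptide that constricts arteries through its receptor on smooth muscle and enlarges the heart. The third was treated with AngII together with prostaglandin E1 (PGE1), a prostanoid that relaxes many vessels, and the title of the series concerns its action on AngII-induced hypertrophy. The sources used here give no genotype beyond the strain, and no sex, age, dose, route or time of treatment. Nothing says whether each library is a different animal, so the spread behind the p-values here may in part be technical.

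Vascular smooth muscle contracts when calcium and calmodulin activate myosin light chain kinase, which phosphorylates the light chain of myosin and lets it pull on actin. Many genes of this apparatus are controlled by serum response factor (SRF) with its partner myocardin, which bind a sequence called the CArG box, and smooth muscle cells lower them when they take on a proliferating, matrix-making state. Pericytes sit on capillaries within the basement membrane. They depend on PDGF-B from the endothelium acting on PDGF receptor beta and on Notch3 activated by ligands on neighbouring cells, and in the heart they carry an ATP-sensitive potassium channel made of SUR2 and Kir6.1. Several members are not restricted to these cells: Abcc9 is also used by cardiomyocytes, Pdgfrb by fibroblasts and Tagln and Cnn1 by activated fibroblasts. In RNA from whole tissue, fewer cells of a type and less RNA per cell cannot be told apart.

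The promoters of the 2 members that passed the test below, Cnn1 and Abcc9, are shown, together with that of Lmod1, which with Cspg4 was the member that held matches to a CArG box with 1 base off, and that of Srf itself as an example with exact boxes. The sequences are from RefSeq, build GRCm38.p6, which is not the mm9 build named for the deposited table. Each is written 5′ to 3′ on the strand of its gene, and positions are counted from the first transcribed base, with the base before it at -1. Capitals mark a CArG box (a run of A or T bases between CC and GG) in Srf, and a box with 1 base off in Lmod1. No box of either kind was found in the Cnn1 and Abcc9 windows.
Cnn1, bases -250 to -1, chr9:22099003-22099252, plus strand: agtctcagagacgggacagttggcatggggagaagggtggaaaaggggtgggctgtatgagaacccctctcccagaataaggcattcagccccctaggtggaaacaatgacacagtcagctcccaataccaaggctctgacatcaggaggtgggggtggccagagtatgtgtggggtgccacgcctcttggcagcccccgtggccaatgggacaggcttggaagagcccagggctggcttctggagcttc
Abcc9, bases -250 to -1, chr6:142702275-142702524, minus strand: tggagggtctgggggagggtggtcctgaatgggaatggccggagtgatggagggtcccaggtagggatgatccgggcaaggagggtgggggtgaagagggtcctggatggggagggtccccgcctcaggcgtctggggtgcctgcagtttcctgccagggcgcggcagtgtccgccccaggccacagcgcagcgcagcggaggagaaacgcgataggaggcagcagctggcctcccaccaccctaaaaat
Lmod1, bases -200 to -101, chr1:135324613-135324712, plus strand: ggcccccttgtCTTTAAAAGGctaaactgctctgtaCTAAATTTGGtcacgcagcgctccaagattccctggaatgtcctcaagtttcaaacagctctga
Srf, bases -110 to -11, chr17:46556173-46556272, minus strand: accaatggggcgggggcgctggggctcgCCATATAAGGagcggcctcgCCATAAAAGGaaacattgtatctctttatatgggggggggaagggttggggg

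A promoter window from 250 bases before to 50 bases after the start was at hand for 7 of the 10 members, the exceptions being Tagln, Myh11 and Pdgfrb. The CArG box reads alike on both strands, so 1 search covers both. None of the 7 windows held an exact box, against 1.63% of 32851 promoters of the same length. A box with at most 1 base off occurred in 2 of the 7, Lmod1 and Cspg4, against 21.1% of all promoters. In Lmod1 these boxes began at -189 and -164. In Cspg4 a pair of overlapping matches began at -238 and -237. Srf held exact boxes at -82 and -62. A match is a description of the letters only, and sites outside the windows, such as those in introns, were not searched.

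Expression is given as FPKM, fragments per kilobase of transcript scaled to sequencing depth, which allows levels of different genes to be set side by side. In each library 11049 to 11970 genes were at 1 FPKM or above, and the top 10 genes took 16.7% to 20.2% of the FPKM sum. Markers of the labelled tissue were present: all 11 cardiomyocyte genes looked for passed the filter, and Myl2, the ventricular myosin light chain, lay between 13914 and 30299 FPKM. The leading principal component, with 62.3% of the variance, set the 3 AngII libraries above all others but did not separate saline from AngII+PGE1. On it saline 2 at 16.3 and AngII+PGE1 1 at 12.4 lay on the side of the AngII libraries at 33.4 to 41.1, and the other 4 libraries lay between -38.6 and -26.4. Member calls that change without saline 2 or AngII+PGE1 1 are given both ways below. For other genes only some such changes are given. Library numbers are column order within a group and pair nothing. The authors number the saline columns 1, 2 and 4 and the AngII+PGE1 columns 2, 3 and 4, so AngII+PGE1 1 is their column 2 and saline 3 their column 4.

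In saline hearts the order of the members by mean FPKM was Smtn at 54.4 ± 11.7 (SD, n = 3, as for all means), Abcc9 at 49.1 ± 13.3, Pdgfrb at 23.6 ± 1.63, Tagln at 15.2 ± 5.45, Notch3 at 8.63 ± 1.10, Myh11 at 6.82 ± 3.24, Mylk at 5.70 ± 1.54, Cspg4 at 4.65 ± 0.425, Cnn1 at 1.08 ± 0.456 and Lmod1 at 0.997 ± 0.349. Neighbours in this order overlapped between libraries except at 3 steps, from Abcc9 down to Pdgfrb, from Pdgfrb down to Tagln and from Cspg4 down to Cnn1. In AngII hearts Tagln stood in place 2, at 38.1 ± 16.5, and Abcc9 in place 3, at 19.8 ± 3.34, with overlapping libraries. Cnn1 stood in place 7, at 6.42 ± 0.930, above Notch3 and Cspg4. In the AngII+PGE1 group the places were again those of saline for all 10 genes, from Smtn at 46.7 ± 6.34 and Abcc9 at 38.6 ± 2.64 down to Cnn1 at 1.86 ± 1.18 and Lmod1 at 1.24 ± 0.221.

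**Figure D1:**
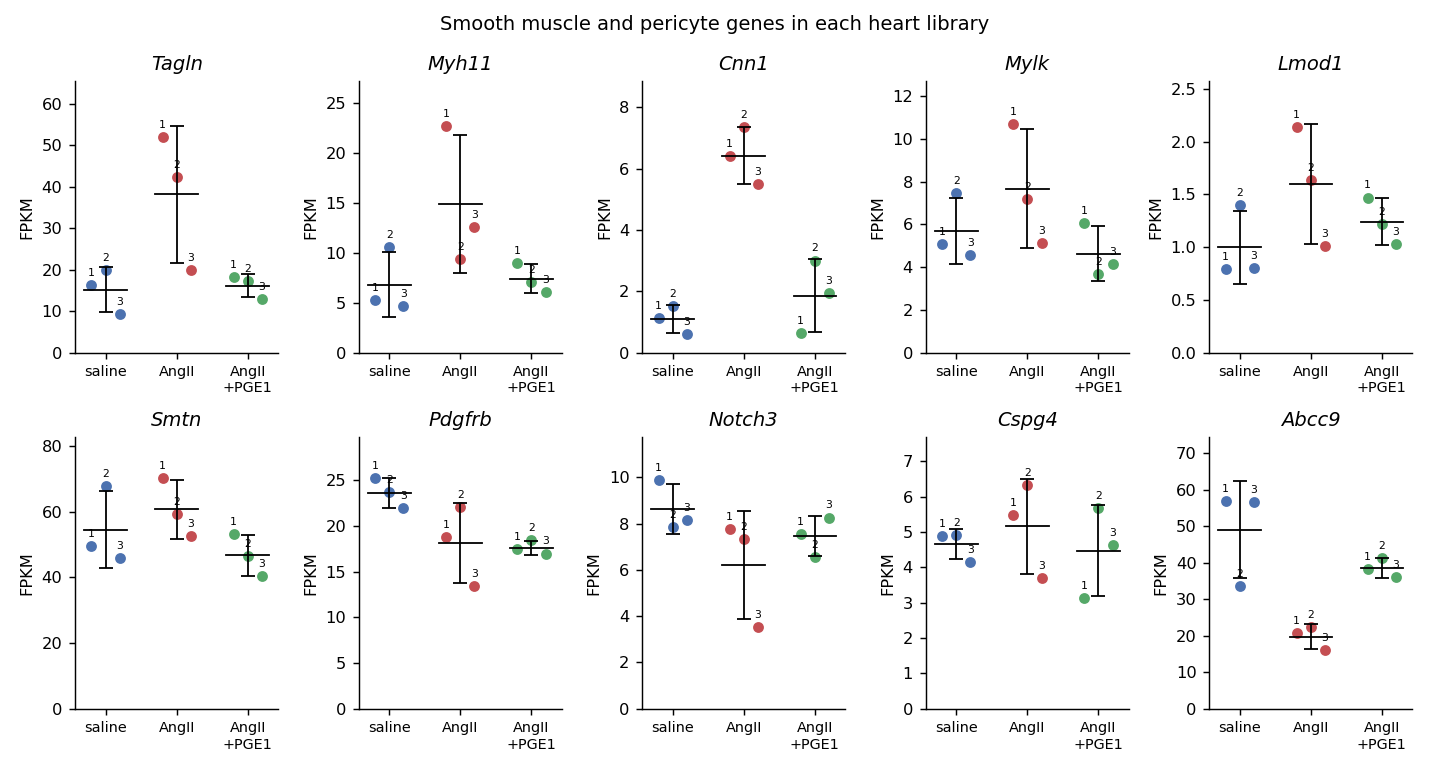
FPKM of the 10 members in each library, with 1 panel per gene and its own axis from 0. Points are libraries labelled by number, and bars are the group mean ± SD (n = 3). The AngII libraries of Cnn1 lie between 5.5 and 7.36, above every other library, and those of Abcc9 lie between 15.99 and 22.39, below every other library.

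The comparison of AngII with saline asks what the peptide does to these genes. Cnn1 rose and Abcc9 fell, and the other 8 members did not pass the test. These 2 calls, 1 in each direction, stand beside 3.11% of the 11902 genes tested that passed in this comparison, 1.31% higher and 1.80% lower. Genes were tested with limma on log2(FPKM + 1), and a gene passed at a Benjamini-Hochberg adjusted p under 0.05 over all genes tested. In this comparison 38.1% of all genes passed without saline 2 and 13.3% without AngII+PGE1 1.

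Cnn1 encodes calponin 1, an actin-binding protein of smooth muscle that slows the myosin ATPase. It stood at 1.12, 1.52 and 0.61 FPKM in saline libraries 1 to 3 and at 6.40, 7.36 and 5.5 FPKM in AngII libraries 1 to 3. The lowest AngII library was well above the highest saline library, and the groups did not overlap. The log2 difference was 1.85 (SE 0.30, 95% interval 1.18 to 2.52, limma adjusted p = 0.0375). The pseudocount of 1 shortens this value for a gene so low in saline, where the ratio of mean FPKM was 5.93 and the difference with a pseudocount of 0.1 was 2.53. The log2 difference stayed between 1.68 and 2.0 when each library in turn was left out. The call was lost without saline 1 (adjusted p = 0.183), saline 3 (0.204), AngII 1 (0.0608), AngII 2 (0.0992), AngII 3 (0.0949) or AngII+PGE1 3 (0.0534). Without saline 2, where 38.1% of all genes passed, it was 2.0 with adjusted p = 0.00482.

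Tagln encodes transgelin, or SM22 alpha, an actin-crosslinking protein and one of the most widely used early smooth muscle markers. It stood at 16.34, 19.96 and 9.25 FPKM under saline and at 52.05, 42.41 and 19.83 FPKM under AngII. The groups met at a single point, with AngII 3 just under saline 2, and the other AngII libraries lay well above. The log2 difference was 1.23 (SE 0.36, 95% interval 0.44 to 2.02) and did not pass (limma adjusted p = 0.0693). Without saline 2, where 38.1% of all genes passed, it was 1.45 and passed, with adjusted p = 0.0177.

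Myh11, the heavy chain of smooth muscle myosin and the most specific marker of the differentiated cell, stood at 5.22, 10.55 and 4.68 FPKM in saline and at 22.70, 9.40 and 12.54 FPKM in AngII. Saline 2 lay within the AngII range, and AngII 1 was the highest library of all. The log2 difference was 1.01 (SE 0.34, 95% interval 0.26 to 1.76, limma adjusted p = 0.0839). It was 1.33 and passed without saline 2 (adjusted p = 0.0116), where 38.1% of all genes passed, and it was 0.68 without AngII 1.

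The other contractile members differed less. Mylk encodes the myosin light chain kinase of smooth muscle and other cells, and stood at 5.09, 7.46 and 4.56 FPKM in saline and 10.69, 7.20 and 5.15 FPKM in AngII. Its log2 difference was 0.35 (95% interval -0.24 to 0.94, adjusted p = 0.356), and 0.11 without AngII 1. Lmod1, leiomodin 1, which nucleates actin filaments in smooth muscle, stood at 0.79, 1.40 and 0.80 FPKM in saline and 2.14, 1.64 and 1.01 FPKM in AngII. It was the lowest member in every group, and its log2 difference was 0.37 (95% interval -0.08 to 0.82, adjusted p = 0.209), and 0.22 without AngII 1. Smtn, smoothelin, an actin-binding protein with a long form in vascular and a short form in visceral smooth muscle, stood at 49.56, 67.80 and 45.97 FPKM in saline and 70.38, 59.17 and 52.54 FPKM in AngII. Its log2 difference was 0.16 (95% interval -0.26 to 0.59, adjusted p = 0.546), which was 0.05 without AngII 1 or saline 3 and 0.33 without saline 2. Smtn is also expressed in striated muscle, and the table does not separate its forms.

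Of the 6 contractile members, 6 had a positive difference and 1 passed, with a median of 0.69 against 0.00 over all genes tested. At an unadjusted p under 0.05 there were 3 higher, Tagln, Myh11 and Cnn1, against 17.0% of all genes higher, and Abcc9 was the 1 member lower, against 18.1% of all genes lower. Groups did not overlap for 1 member, Cnn1, against 17.9% of all genes higher. With each library scaled to the same sum of FPKM the difference of Smtn came to 0 while that of the other 5 remained positive. Among saline libraries, saline 2 held the highest value for 6 of the 6 contractile members. AngII 1 held the highest AngII value for 5 of 6, and AngII 3 the lowest for 5 of 6. AngII+PGE1 1 held the highest value of its group for 5 of 6, the exception being Cnn1, for which it was the lowest.

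Among the pericyte and mural members, Abcc9 moved most. It encodes SUR2, the sulfonylurea receptor subunit of ATP-sensitive potassium channels in vessels and heart. It stood at 56.99, 33.69 and 56.53 FPKM in saline and at 20.87, 22.39 and 15.99 FPKM in AngII. Every AngII library lay below every saline library, and saline 2 was the lowest of its group. The log2 difference was -1.25 (SE 0.22, 95% interval -1.73 to -0.76, limma adjusted p = 0.0403), a ratio of mean FPKM of 0.402. Leaving out each library in turn kept it between -1.49 and -1.11. The call was lost without saline 1 (adjusted p = 0.193), saline 3 (0.204), AngII 1 (0.0624), AngII 2 (0.0974), AngII 3 (0.111), AngII+PGE1 2 (0.0636) or AngII+PGE1 3 (0.0558), and also with each library scaled to the same sum (0.0554).

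Pdgfrb, PDGF receptor beta, stood at 25.24, 23.69 and 21.98 FPKM in saline and at 18.81, 22.14 and 13.45 FPKM in AngII. AngII 2 reached just above the lowest saline library. The log2 difference was -0.39 (95% interval -0.79 to 0.01, limma adjusted p = 0.149), and -0.20 without AngII 3. Notch3, the Notch receptor of mural cells, stood at 9.88, 7.84 and 8.16 FPKM in saline and at 7.78, 7.34 and 3.53 FPKM in AngII. The groups did not overlap, by a margin of 7.78 against 7.84, and the difference of -0.47 (95% interval -1.01 to 0.07) did not pass (adjusted p = 0.187). Without AngII 3 the Notch3 difference was -0.16. Cspg4, the NG2 proteoglycan, stood at 4.88, 4.91 and 4.16 FPKM in saline and at 5.47, 6.33 and 3.69 FPKM in AngII. Its log2 difference was 0.10 (95% interval -0.38 to 0.59, adjusted p = 0.751) and turned to -0.03 without AngII 2 and to -0.04 with each library scaled to the same sum.

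The median over these 4 members was -0.43 against 0.00 over all genes, with 3 negative and 1 called lower. Groups did not overlap for 2 members, Abcc9 and Notch3, against 15.8% of all genes lower. AngII 3 held the lowest AngII value for 4 of the 4. The summed FPKM of 12 endothelial markers was also lowest in that group in AngII 3, at 395, against 652 and 599 in AngII 1 and 2 and 581 to 713 in saline. None of the 12 endothelial genes passed over all 9 libraries, and Cdh5, VE-cadherin, stood at 37.18 FPKM in AngII 3 against 75.98 and 75.55 in AngII 1 and 2. Of the 12, 10 had a negative difference with AngII and 2 a positive one, among them Egfl7 at 0.67 (limma adjusted p = 0.168). Without saline 2, where 38.1% of all genes passed, Egfl7 differed by 1.05 and passed (0.0125). The part of these endothelial values in the pericyte values was not tested.

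**Figure D2:**
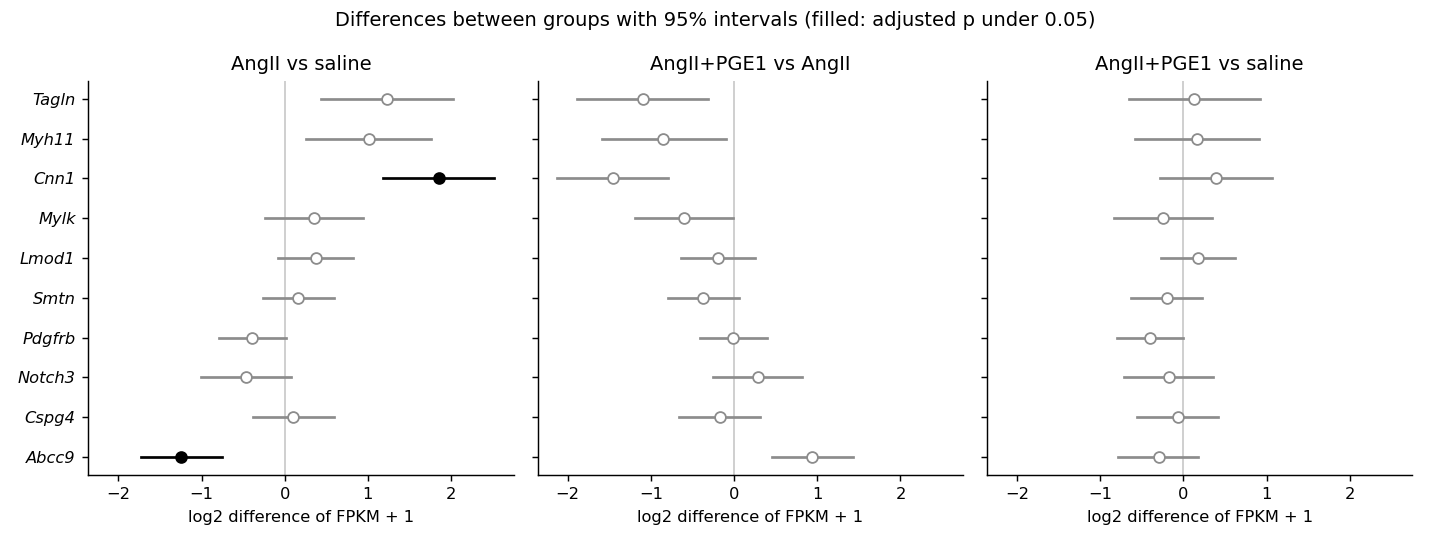
Differences in log2(FPKM + 1) of the 10 members in the 3 comparisons, with 95% intervals from limma over all 9 libraries (n = 3 per group). Cnn1 at 1.85 and Abcc9 at -1.25 in AngII against saline are the members past the threshold, and their differences have the opposite sign in AngII+PGE1 against AngII.

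The comparison of AngII+PGE1 with AngII asks what added PGE1 does in AngII-treated hearts. No member passed, beside 0.403% of all genes tested that did. With 1 library left out that share was 20.6% for saline 2 and 26.9% for AngII+PGE1 1. It was 6.49% with only the 2 groups compared and 2.83% with median-ratio scaling. At an unadjusted p under 0.05 there were 5 members, Cnn1, Tagln, Myh11 and Mylk lower and Abcc9 higher, against 20.5% of all genes lower and 13.1% higher. All 6 contractile members had a negative difference, with a median of -0.72 against -0.08 over all genes. This comparison shares its AngII libraries with the one above, so opposite signs are no independent result.

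Cnn1 stood at 0.64, 3.0 and 1.93 FPKM in AngII+PGE1 libraries 1 to 3. The groups did not overlap, and AngII+PGE1 1 lay in the saline range while the other pair lay between the saline and AngII ranges. The log2 difference from AngII was -1.46 (SE 0.30, 95% interval -2.13 to -0.79, limma adjusted p = 0.0557). It passed without saline 2 (-1.46, adjusted p = 0.0196), without AngII+PGE1 1 (-1.11, 0.018), with only the 2 groups compared (-1.46, 0.0422) and with median-ratio scaling (-1.35, 0.0476). In these settings 2.83% to 26.9% of all genes passed.

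Abcc9 stood at 38.35, 41.33 and 36.07 FPKM with PGE1. These libraries lay close together, above every AngII library and within the saline range, beside 16.3% of all genes higher without overlap. The log2 difference from AngII was 0.94 (SE 0.22, 95% interval 0.46 to 1.43, limma adjusted p = 0.0590). It passed without saline 2 (adjusted p = 0.0136), without AngII+PGE1 1 (0.95, 0.0278), with only the 2 groups compared (0.0406) and with median-ratio scaling (1.08, 0.0443). In these settings 2.83% to 26.9% of all genes passed.

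Tagln stood at 18.25, 17.13 and 12.92 FPKM and Myh11 at 8.99, 7.08 and 6.11 FPKM with PGE1. Neither overlapped AngII, and Cnn1, Tagln and Myh11 were the 3 contractile members lower without overlap, against 19.7% of all genes lower. The log2 difference from AngII was -1.10 for Tagln (95% interval -1.89 to -0.31, limma adjusted p = 0.0850), and -0.83 without AngII 1. Tagln passed without saline 2 (0.0482), where 20.6% of all genes passed. The difference of Myh11 was -0.85 (95% interval -1.59 to -0.10, adjusted p = 0.118), and -0.51 without AngII 1.

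Mylk stood at 6.08, 3.67 and 4.13 FPKM with PGE1, Smtn at 53.14, 46.52 and 40.47 FPKM, and Lmod1 at 1.47, 1.22 and 1.03 FPKM. All 3 overlapped AngII, with log2 differences of -0.60 (adjusted p = 0.144; -0.36 without AngII 1), -0.37 (0.193) and -0.19 (0.502). Pdgfrb stood at 17.46, 18.50 and 17.00 FPKM, within the AngII range, with a difference of -0.01 (95% interval -0.41 to 0.39). Notch3 at 7.56, 6.57 and 8.26 FPKM and Cspg4 at 3.12, 5.68 and 4.62 FPKM also overlapped AngII, with differences of 0.29 (95% interval -0.25 to 0.82) and -0.17 (95% interval -0.66 to 0.31). None of the 3 keeps its sign: Notch3 was -0.02 without AngII 3, Cspg4 was 0.02 without AngII+PGE1 1, and Pdgfrb ran from -0.20 without AngII 3 to 0.14 without AngII 2. With saline 2 and AngII+PGE1 1 left out together, 6 members passed, of which Tagln, Myh11, Cnn1, Mylk and Smtn were lower and Abcc9 was higher, but 44.9% of all genes then passed as well.

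The comparison of AngII+PGE1 with saline gives what remained between treated and untreated hearts. No member passed, beside 0.0168% of all genes, and every member had a limma adjusted p of 1.0. Pdgfrb was the member whose groups did not overlap, with its PGE1 libraries at 17.00 to 18.50 FPKM below saline at 21.98 to 25.24. Its log2 difference was -0.40 (SE 0.18, unadjusted p = 0.0488), beside 3.12% of all genes lower at an unadjusted p under 0.05 and 7.89% lower without overlap. In the same comparison 20 of 22 other pericyte genes had a negative difference, 8 of them without overlap, and so had 11 of 12 endothelial markers, 5 without overlap, among them Cdh5 (-0.83, unadjusted p = 0.0101, adjusted p = 1.0). Of 12 fibroblast genes 10 were negative, 6 without overlap, and of 17 Notch genes 16 were, 5 without overlap. Cardiomyocyte genes were mixed, 6 negative and 5 positive, and the median over all genes was -0.07. The part of these in the Pdgfrb value was not tested. The 95% interval of the difference ran from -0.28 to 1.06 for Cnn1, from -0.66 to 0.92 for Tagln, from -0.58 to 0.91 for Myh11 and from -0.79 to 0.18 for Abcc9. Without AngII+PGE1 1 the Cnn1 difference was 0.74, and without saline 2 the differences were 0.54 for Cnn1, 0.35 for Tagln, 0.48 for Myh11 and -0.55 for Abcc9, none of which passed. A p that misses the threshold does not show equal levels.

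**Figure D3:**
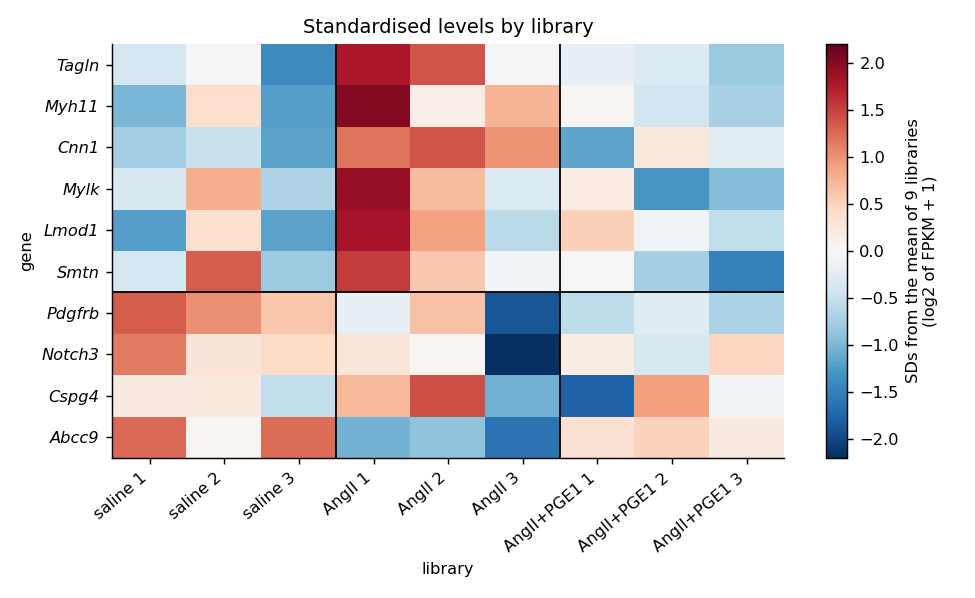
Log2(FPKM + 1) of each member in each library, standardised per gene. Colours show SDs from the mean of that gene over the 9 libraries. For 5 of the 6 contractile members AngII 1 is the highest AngII library, and Abcc9 is lowest in the 3 AngII libraries.

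Ratios within a library compare members without any scaling between libraries. The ratio of Cnn1 to Smtn FPKM was 0.0226, 0.0224 and 0.0133 in saline, 0.0909, 0.124 and 0.105 in AngII, and 0.0120, 0.0645 and 0.0477 with PGE1. All 3 AngII libraries lay above the other 6. The ratio of Tagln to Smtn was 0.330, 0.294 and 0.201 in saline, 0.740, 0.717 and 0.377 in AngII and 0.343, 0.368 and 0.319 with PGE1, again with AngII highest, by a narrow margin in AngII 3. The ratio of Myh11 to Smtn was 0.105, 0.156 and 0.102 in saline, 0.323, 0.159 and 0.239 in AngII and 0.169, 0.152 and 0.151 with PGE1, so that AngII 2 lay within the PGE1 range and just above saline. Among pericyte markers, the ratio of Abcc9 to Pdgfrb was 2.26, 1.42 and 2.57 in saline, 1.11, 1.01 and 1.19 in AngII, and 2.2, 2.23 and 2.12 with PGE1. All 3 AngII libraries lay below the other 6. The ratio of Cspg4 to Pdgfrb was 0.193, 0.207 and 0.189 in saline, 0.291, 0.286 and 0.274 in AngII and 0.179, 0.307 and 0.272 with PGE1. These 5 of 12 ratios computed were chosen after their values were seen, so no test is given. A ratio shows unequal change and not which gene changed.

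**Figure D4:**
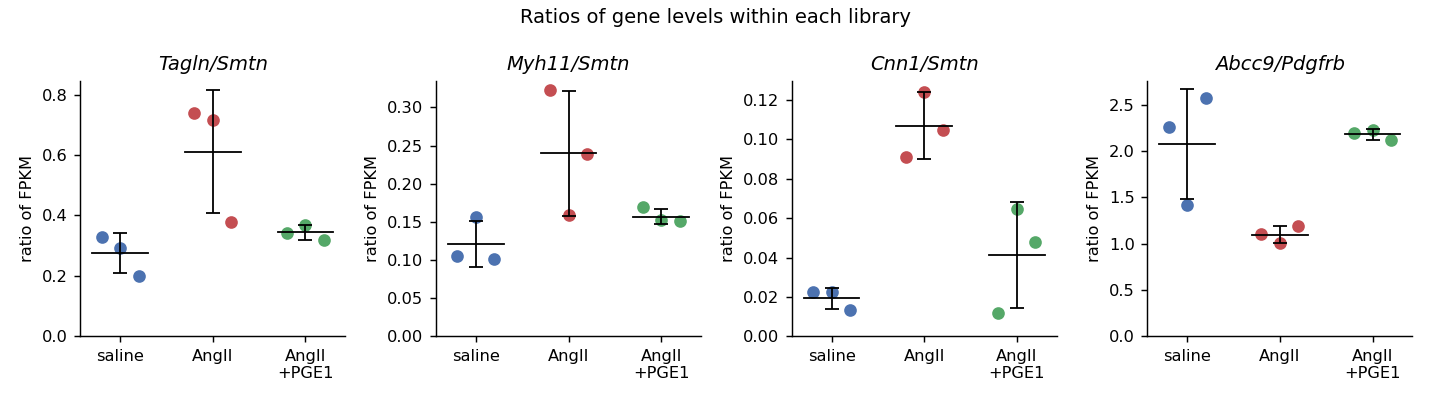
Ratios of FPKM of 2 members within each library, with points for libraries and the group mean ± SD (n = 3). The AngII libraries lie above both other groups for Cnn1 to Smtn and below them for Abcc9 to Pdgfrb.

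Across the 9 libraries the correlation of log2 values was 0.93 between Mylk and Smtn, 0.87 between Tagln and Lmod1, and 0.42 between Cnn1 and both Mylk and Smtn. Pdgfrb and Notch3 had 0.79, and Abcc9 had 0.58 with Pdgfrb, -0.10 with Cspg4 and -0.85 with Cnn1. These describe 9 libraries that share groups, and they hold the group differences within them. Averaged after standardising each gene, the contractile members stood at 1.71, 0.85 and 0.12 in AngII 1 to 3, at 0.40 in saline 2 and at or below -0.10 in the other 5 libraries.

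The genes most like the contractile average over the 9 libraries, of 8124 candidates, were Thyn1 (Pearson r 0.971), Ints11 (0.971), Crip1 (0.967), Ddx55 (0.965) and Gtf2f1 (0.964). Those most like the pericyte average were Zdhhc18 (0.954), Bub3 (0.951), Mfsd5 (0.95), Spry4 (0.947) and Llgl1 (0.945). By Spearman rank correlation the 5 closest to the contractile average were others, Ier5l, Pced1b, Lime1, Rps26 and Fam162a (each 0.983). Among the closest to the pericyte average by rank were Zfp362 and Spred2 (each 0.983), with Zdhhc18, Traf7 and Oaz2 tied in place 4 (each 0.967). All of these values come from 9 libraries that share groups, and the names depend on the measure.

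Partner genes were read from lists of the same pathways. Of 24 other smooth muscle contractile genes tested, Actg2 and Tpm2 rose with AngII and none fell, 19 had a positive difference and the median was 0.32. These and the partner counts that follow stand beside the 1.31% of all genes called higher and 1.80% called lower with AngII. With PGE1 added none passed over all 9 libraries, and 19 had a negative difference from AngII. Actg2, enteric smooth muscle actin, stood at 1.02, 0.96 and 0.58 FPKM in saline, 3.62, 2.69 and 1.75 in AngII, and 1.16, 1.48 and 0.94 with PGE1. Its AngII libraries lay above all others, with a difference from saline of 0.97 (SE 0.21, limma adjusted p = 0.0453). Tpm2, beta-tropomyosin, which smooth and skeletal muscle use, stood at 14.75, 22.87 and 10.90 FPKM in saline, 48.62, 39.34 and 26.44 in AngII and 17.08, 12.89 and 16.43 with PGE1. Its difference from saline was 1.21 (SE 0.28, limma adjusted p = 0.0495).

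Acta2, smooth muscle alpha-actin, the marker most often used beside Tagln, overlapped between saline and AngII. It stood at 238.52, 100.98 and 129.17 FPKM in saline, 201.72, 71.34 and 56.95 in AngII and 35.70, 71.30 and 62.31 with PGE1. AngII 1 lay within the saline range and the other pair lay below it, and the log2 difference was -0.63 (95% interval -1.69 to 0.42, limma adjusted p = 0.347). The PGE1 libraries lay below all saline libraries, with a difference of -1.41 (unadjusted p = 0.0138, adjusted p = 1.0). Des, desmin, is a filament protein of all muscle including the cardiomyocyte. Its difference with AngII was 1.31 (adjusted p = 0.0624; 1.43 and 0.0193 without saline 2, 1.31 and 0.0415 without AngII+PGE1 1), from 1096 to 1409 FPKM in saline and from 1688 to 4759 in AngII. AngII 3, which was low for Tagln, was the highest of its group for Des.

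**Figure D5:**
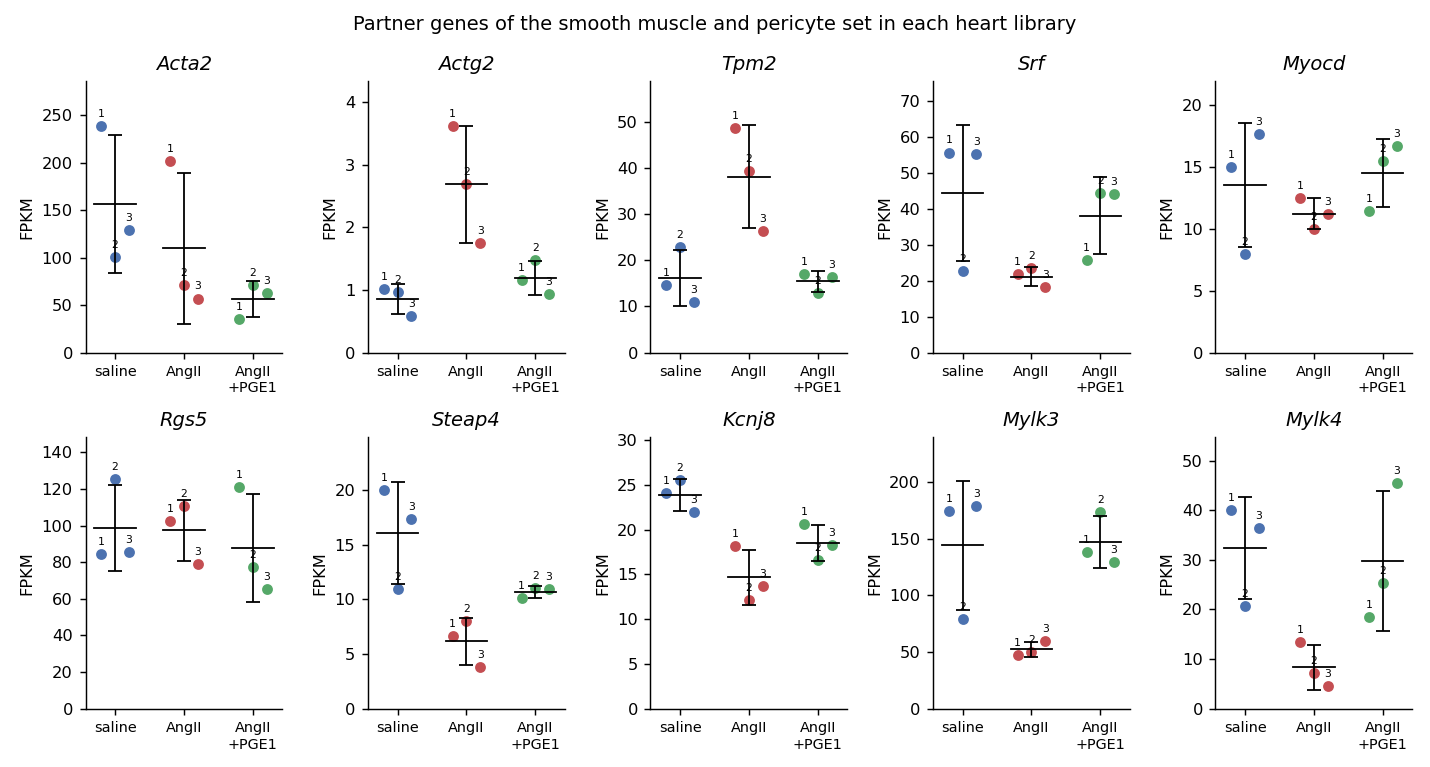
FPKM of 10 partner genes in each library, 1 panel per gene with its own axis from 0, with library numbers and the group mean ± SD (n = 3). Actg2 and Tpm2 are highest in AngII, Steap4, Mylk3 and Mylk4 are lowest there, and Acta2 overlaps between saline and AngII.

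Of 14 tested regulators in the SRF and myocardin list, none passed over all 9 libraries, and 11 had a negative difference with AngII, with a median of -0.40. Srf stood at 55.77, 22.63 and 55.29 FPKM in saline, 21.84, 23.58 and 18.16 in AngII, and 25.93, 44.40 and 44.25 with PGE1. Saline 2 lay within the AngII range, and the difference of -0.94 did not pass (limma adjusted p = 0.0937). Fhl2, an SRF cofactor of the LIM family, was lower in AngII without overlap, with a difference of -0.73 (adjusted p = 0.104). Of the 14 regulators it was the 1 lower without overlap, and 2 were higher without overlap. These stand beside 15.8% of all genes lower and 17.9% higher without overlap. Lmcd1, another LIM protein, differed by -0.84 (0.0843). Myocd, myocardin, which cardiomyocytes also use, stood at 7.97 to 17.61 FPKM in saline and 9.96 to 12.49 in AngII, with a difference of -0.19 (95% interval -0.77 to 0.39). Without saline 2, where 38.1% of all genes passed, the differences were -1.36 for Srf (adjusted p = 0.00547), -1.01 for Fhl2 (0.0112) and -1.11 for Lmcd1 (0.0104), which passed, and -0.50 for Myocd (0.0601), which did not. Myocd passed with saline 2 and AngII+PGE1 1 both left out (-0.50, 0.0175).

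Of 22 other pericyte genes tested, Steap4 fell with AngII and none rose, 15 had a negative difference and the median was -0.24. Steap4, a metalloreductase, stood at 19.99, 10.94 and 17.29 FPKM in saline, 6.63, 8.01 and 3.82 in AngII and 10.07, 11.02 and 10.93 with PGE1. Its difference was -1.26 (SE 0.26, limma adjusted p = 0.0435). Rgs5, the regulator of G-protein signalling that is the most abundant pericyte marker here, stood at 84.52, 125.57 and 85.68 FPKM in saline and 102.65, 110.86 and 78.81 in AngII. The difference was -0.01 (95% interval -0.57 to 0.56), and the groups overlapped.

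The 3 other subunit genes of ATP-sensitive potassium channels had negative differences with AngII, and none passed over all 9 libraries. Kcnj8 encodes Kir6.1, the pore that SUR2 joins in pericytes and smooth muscle. It stood at 24.10, 25.53 and 21.99 FPKM in saline, 18.12, 12.16 and 13.68 in AngII and 20.61, 16.58 and 18.26 with PGE1. The AngII libraries lay below saline without overlap, with a difference of -0.68 (SE 0.17, limma adjusted p = 0.0553). Kcnj11, which encodes Kir6.2, the pore of the cardiomyocyte channel, differed by -0.54, and Abcc8, which encodes SUR1, by -0.27. Without saline 2 Kcnj8 (-0.64, adjusted p = 0.0263) and Kcnj11 (-0.69, 0.0284) passed and Abcc8 (-0.34, 0.172) did not, and Kcnj8 also passed without AngII+PGE1 1 (0.0362). Since Abcc9 serves cardiomyocytes as well as mural cells, the cells in which it fell cannot be told apart in these data.

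In the list of light chain phosphorylation and RhoA signalling, 2 of 21 genes passed with AngII, both lower, and both are kinases of the Mylk family that striated muscle uses. Mylk3, the cardiac myosin light chain kinase, had a mean of 144 ± 56.6 FPKM in saline, 52.5 ± 6.69 in AngII and 147 ± 23.3 with PGE1. Its difference with AngII was -1.36 (limma adjusted p = 0.0453). Mylk4 had means of 32.3 ± 10.3, 8.39 ± 4.52 and 29.7 ± 14 FPKM, with a difference of -1.88 (adjusted p = 0.0453). Mylk, the smooth muscle member, had a difference of opposite sign, 0.35, that did not pass.

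No gene of the Notch list (17 tested) or the PDGF list (9 tested) passed in any comparison over all 9 libraries, the former with a median of -0.12 and the latter with -0.19 for AngII against saline. Jag1, a ligand of Notch3 on endothelium and smooth muscle, differed by 0.50 (limma adjusted p = 0.171; 0.76 and 0.0198 without saline 2), and Pdgfb, the ligand of Pdgfrb, by -0.19 (0.617). Heyl, a Notch target in mural cells, differed by -0.12 (0.667). Among 11 tested receptors for vasoactive agents, Agtr1a and Adra1b fell with AngII. Agtr1a, the type 1 angiotensin receptor, had means of 20 ± 2.88 in saline, 11.5 ± 1.36 in AngII and 25.4 ± 2.77 FPKM with PGE1, with differences of -0.74 (adjusted p = 0.0453) and then 1.08 (0.0395). The second call was lost without saline 1, saline 3, AngII 1, AngII 2, AngII+PGE1 2 or AngII+PGE1 3. It was also lost with no filter and with each library scaled to the same sum. Over all 18 alternatives the difference was 1.0 to 1.21. Adra1b, an alpha-1 adrenergic receptor, differed by -1.62 (0.0468).

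Of 12 tested genes linked to the synthetic state of smooth muscle, Lgals3 and Mgp rose with AngII, 11 had a positive difference and the median was 0.60. Lgals3, galectin 3, which macrophages also make, stood at 3.64 ± 1.49 FPKM in saline and 17.1 ± 8.32 in AngII (difference 1.89, limma adjusted p = 0.0453). Mgp, matrix Gla protein, an inhibitor of calcification made by smooth muscle and fibroblasts, stood at 219 ± 47.5 and 563 ± 232 (1.30, 0.0465). With PGE1 added all 12 had a negative difference from AngII, and none passed over all 9 libraries. Lgals3 (-1.43, adjusted p = 0.0362) and Mgp (-0.94, 0.0416) did so without saline 2, where 20.6% of all genes passed. So genes of the contractile and of the synthetic lists both had mostly positive differences with AngII. Most of these partner calls lay close under the threshold: Actg2, Tpm2, Steap4, Mylk3, Mylk4, Agtr1a, Adra1b and Mgp each kept the AngII call in 2 of 9 settings that left out 1 library, those without saline 2 and without AngII+PGE1 1, and Lgals3 in 3 of 9, also without AngII 1.

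Markers of other cells stood as follows beside these results. Among 12 fibroblast genes, Postn, periostin of activated fibroblasts, rose with AngII (difference 3.61, limma adjusted p = 0.0453) and Gsn, gelsolin, fell (-1.23, 0.0332). With PGE1 added Gsn rose from its AngII level (1.18, 0.0427). These calls held in 3 of 9 settings that left out 1 library, those without saline 2, AngII 1 or AngII+PGE1 1, with 2.63 to 4.41 for Postn over all alternatives. Postn was highest in AngII 2, at 455.92 FPKM, where Cnn1 was also highest, and stood at 37.81 and 89.91 in AngII 1 and 3. In AngII 1, the lowest of the group for Postn, 5 of the 6 contractile members were highest. The summed fibroblast markers ranged from 1090 to 1270 FPKM in saline, 952 to 2540 in AngII and 979 to 1050 with PGE1. None of 9 macrophage genes tested passed over all 9 libraries, with sums of 313 to 469 in saline, 376 to 549 in AngII and 285 to 421 with PGE1. With AngII 5 had a positive difference and 4 a negative one, among them C1qa at 0.68 (limma adjusted p = 0.0631) and Lyz2 at -0.61 (0.171). C1qa passed without saline 2 (0.62, 0.0323) and without AngII+PGE1 1 (0.68, 0.042). Of the lymphocyte list 2 of 8 were tested and Nkg7, of cytotoxic cells, rose (1.10, 0.0375, kept in 2 of 9 such settings, without saline 2 and without AngII+PGE1 1), and Cd3d and Ms4a1 were listed at 0 in some libraries. Fabp4 is a fatty acid carrier of adipocytes and of the capillary endothelium of the heart. It was highest within each group in saline 2 (2365 FPKM), AngII 1 (2662) and AngII+PGE1 1 (1454), the libraries highest for most contractile members. These libraries also had the highest sum of FPKM in their groups (663640, 680885 and 638082) and the highest Myl2 value. Adipoq and Plin1 of adipocytes were listed at 0 in some libraries. The part of these cell types in the results was not tested.

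In the authors' deposited table the log2 ratio of AngII to saline was 2.51 for Cnn1, 1.27 for Tagln, 1.03 for Myh11 and -1.37 for Abcc9, and its sign was that of the present difference for 10 of the 10 members. For AngII+PGE1 and AngII the signs in the authors' deposited table matched for 9 of 10, with Pdgfrb, near 0 here, as the exception.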

How the data were processed

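Messenger RNA of 9 heart libraries was sequenced as single reads of 50 bases. The authors deposited 1 table of expression values, read here from the values as FPKM: the column sums differed by a ratio of 1.26 and length-weighted sums by 1.09. HISAT2 2.0.4, Bowtie2 2.2.5, RSEM 1.2.12 and mm9 are named, per the submitters' processing notes, with no role stated. The sources used here name neither the annotation nor the use of strand. Also deposited by the authors were log2 ratios between groups, with no method stated. No counts were used and no count model was fitted. Steps between low values gave a rough depth of 12400000 to 16000000 reads per library from 457 genes, used in no test. At that depth Cnn1 would rest on about 21 to 251 reads per library and Lmod1 on 39 to 128, so the lowest members carry the largest counting error.

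FPKM divides by transcript length and by mapped reads, so abundant transcripts lower all others. Columns show the group by name but not the sample, and 11 gene symbols stored as dates were restored from gene identifiers. Values were analysed as log2(FPKM + 1), and fold changes are on that scale, which understates low genes. The 11902 genes with 3 or more libraries at 1 FPKM or above entered limma 3.58.1 (R 4.3.3) with a mean for each group over all 9 libraries, a variance trend and 6 residual degrees of freedom, with Benjamini-Hochberg adjustment over all genes and a threshold of 0.05. The design had named a count test first, with limma for normalized values. An exact permutation test of 3 against 3 libraries cannot go below p = 0.1, so none is used for single genes. The code was tested on simulated data with known changes. Members and lists were chosen with earlier results of these data known.

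Named genes are the 10 members, 8 partners named whatever their values (Acta2, Rgs5, Kcnj8, Myocd, Srf, Des, Pdgfb and Jag1), up to 4 past the threshold or else up to 3 of the highest mean from each list, and the 5 genes of most alike pattern that reached 5 FPKM in a group mean. Alternatives were the 2 groups alone, each library left out, saline 2 and AngII+PGE1 1 left out together, a filter of 5 FPKM or none, 0.1 as pseudocount, quantile, median-ratio and same-sum scaling, and robust limma.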

Additional observations from a re-analysis of the deposited data

How the results depend on the processing

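The sign of every member difference in AngII against saline was kept in each alternative run, except Smtn and Cspg4 as given above, and the call of Cnn1 was kept in 12 of 18 alternatives and that of Abcc9 in 10 of 18. In AngII against saline 370 genes passed. That count was 0 to 4512 with each library left out, 5768 with saline 2 and AngII+PGE1 1 both left out, 88 with no filter, 593 with quantile normalization and 47 with each library scaled to the same sum. Members called were 2, and then 0 to 4 with each library left out, 4 with both left out (Tagln, Myh11, Cnn1 and Abcc9) and 1 with the same sum (Cnn1). In AngII+PGE1 against AngII 48 genes passed, and 0 to 3193 with each library left out, 772 with the 2 groups alone, 5279 with both left out, 6 with no filter, 335 with median-ratio scaling and 13 with the same sum. Members called there were 0, and 0 to 3 with each library left out, 2 with the 2 groups alone, 6 with both left out and 2 with median-ratio scaling. In AngII+PGE1 against saline 2 genes passed, and 0 to 23 with each library left out, 1 with the 2 groups alone, 19 with both left out, 0 with no filter and 0 with the same sum. The cause was not tested, beyond the fewer samples or other genes that each setting has by construction. Same-sum scaling moved the median of all genes in AngII against saline from 0.00 to -0.14. With a minimum of 5 FPKM, 9 members were tested, without Lmod1. No paired analysis was possible because the numbers of the authors' columns (1, 2 and 4, 1 to 3, and 2 to 4) cannot be matched to the replicate numbers of the sample titles (1 to 3 in each group). Alternatives for counts were not run, since the table holds none.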
